A study of Mus musculus with 6 samples.

Results

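The STAT genes Stat2, Stat3, Stat4, Stat5a, Stat5b and Stat6 encode signal transducers and activators of transcription. These 6 genes were taken by symbol from the 54532 genes of the read count table of splenic CD4+ T cells taken from C57BL/6 mice in the acute phase of EAE, experimental autoimmune encephalomyelitis, in which T cells attack the brain and spinal cord. There were 3 libraries labelled Ogt-KD, from mice of the genotype Ogtfl/wt CD4-Cre, and 3 control libraries from mice labelled wild type. The Ogt-KD mice carry 1 floxed and 1 wild-type allele of Ogt, the gene of the O-GlcNAc transferase, which lies on the X chromosome. They also carry Cre under the control of the Cd4 gene, a T cell driver that is also active in the precursors of CD8 T cells. Counts from bulk RNA do not tell whether Ogt was lost in all cells or in some. No Cre or floxed allele is named for the controls, so what Cre itself or DNA next to an allele does and what Ogt does cannot be told apart here. Age is not named for either group. The comparison asks whether STAT RNA in the CD4+ T cells depended on the Ogt genotype at this stage.

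STAT proteins wait in the cytoplasm until a cytokine binds its receptor. Janus kinases bound to the receptor chains then phosphorylate the STAT protein, which pairs with another, enters the nucleus and binds DNA. In helper T cells each STAT is tied to certain cytokines and cell fates. STAT2 joins the interferon factor IRF9 in the complex ISGF3, which binds the interferon-stimulated response element. STAT3 acts behind interleukin 6, 10, 21 and 23, and STAT4 behind interleukin 12 in Th1 cells. STAT5A and STAT5B act behind interleukin 2, 7 and 15 and are needed for regulatory T cells. STAT6 acts behind interleukin 4 in Th2 cells. Phosphorylation is what activates these proteins, and RNA counts do not measure it.

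Stat2 and 1 of the annotated starts of Stat4 held the letters of the interferon-stimulated response element, and they are shown here because the Stat2 counts described below followed the interferon-stimulated genes. The windows were the 250 bases before and 50 bases after each gene start in RefSeq (build GRCm38.p6). The motif searched was GAAA, any 2 bases and GAAA again, on both strands, and it was found in 1131 of 32851 windows (3.44%). Among the STAT genes it occurred in 2 of 9 windows (22.2%), which belong to 2 of the 6 genes. Among the ISGF3 targets it occurred in 6 of 16 windows (37.5%), which belong to 6 of the 13 genes with a window. The Stat2 window is chr10:128270248-128270547 on the plus strand, with the match from base -222 to -213 relative to the start in capitals, where it reads as the reverse complement of the motif:
Stat2 window: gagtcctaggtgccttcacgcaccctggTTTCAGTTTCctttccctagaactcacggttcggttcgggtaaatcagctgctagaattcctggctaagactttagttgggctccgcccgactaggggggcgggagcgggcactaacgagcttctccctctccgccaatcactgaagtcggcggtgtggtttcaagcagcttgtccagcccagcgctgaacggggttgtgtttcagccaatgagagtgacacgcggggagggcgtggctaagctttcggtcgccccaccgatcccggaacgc
Read in the direction of the motif, with 10 bases on either side of the matched bases and the bases covered by matches in capitals, the Stat2 match stands beside those of Stat4 and 4 ISGF3 targets as follows:
Stat2: ctagggaaagGAAACTGAAAccagggtgcg
Stat4: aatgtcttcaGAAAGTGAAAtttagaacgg
Isg15: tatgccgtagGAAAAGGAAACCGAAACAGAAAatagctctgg
Oas1a: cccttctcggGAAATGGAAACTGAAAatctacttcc
Ifit3: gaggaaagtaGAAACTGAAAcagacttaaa
Rsad2: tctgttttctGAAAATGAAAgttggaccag
The stretch shown for Stat4 is chr1:52008133-52008162, and its match, from base -97 to -88, lies before the second of its starts in the table, and the window of the first held none. Isg15 had 3 overlapping matches and Oas1a had 2. Ifit3 had 2 separate matches, of which the one nearer the start is shown. The gamma-activated site that most STAT pairs bind was searched as TTCNNNGAA. It occurred in 0 of the 9 STAT windows and in 8.3% of all windows. The wider-spaced form with 1 more free base between TTC and GAA, which STAT6 prefers, occurred in 1 STAT window, that of Stat2, next to its interferon-type match without overlap, and in 6.95% of all windows. A match in these letters is not a measured binding site.

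The 6 genes lie at 3 places in the genome (GRCm38). Stat5b (11:100780731-100850724, minus strand), Stat5a (11:100859351-100885169, plus strand) and Stat3 (11:100885098-100939540, minus strand) are direct neighbours on chromosome 11. Stat5a and Stat5b start away from each other with 8.63 kb between them, and the ends of Stat5a and Stat3 overlap on opposite strands. Stat6 (10:127642986-127660957) and Stat2 (10:128270559-128292849) are 610 kb apart on chromosome 10 with 26 annotated protein-coding genes between them. Stat4 (1:51987148-52107189) stands alone of the 6 on chromosome 1 and overlaps the transcript gene Gm28177 on the same strand. The end of Stat6 overlaps that of Nab2 on the other strand. Whether the counting used strand is not given in the sources used here, so reads in these overlaps may have been counted for either gene. Among the 6 genes, only Stat5a and Stat5b shared exact 50-base stretches in the annotated coding transcripts: 15.8% of the 50-base windows of the longest Stat5a transcript and 11.8% of those of Stat5b. For 100-base windows the shares were 6.99% and 5.18%. The read length is not given in the sources used here, and reads from shared stretches could be assigned to either Stat5 gene.

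Total counts ran from 18127031 to 25683453 per library. Ogt itself stood at 599, 628 and 562 CPM (the count scaled to the library size) in control and 662, 599 and 459 CPM in Ogt-KD. It did not pass as lower in Ogt-KD libraries (edgeR log2 fold change -0.06 with SE 0.15, adjusted p = 0.981). The count is over the whole gene, and the floxed exons were not counted on their own, so the deletion was not measured. The 7 T cell markers, Cd4 and Cd3e among them, summed to 3427 to 3768 CPM in control and 3234 to 3499.9 CPM in Ogt-KD libraries. Markers of other cells were present too, and no marker was at 0 in all libraries. CD8 T cell markers summed to 12.9 to 17.1 CPM over all libraries and B cell markers to 56.3 to 87.1 CPM. The 8 dendritic cell and antigen presentation markers summed to 466 to 1011 CPM in control and 839 to 2354 CPM in Ogt-KD libraries. The 5 macrophage and monocyte markers summed to 2332 and 2099 CPM in replicate 3 of control and Ogt-KD, and to between 557 and 1024 CPM in the other 4 libraries. Replicate 3 of both groups lay at one end of the first principal component, at -40.7 and -38.4, and Ogt-KD replicates 1 and 2 at the other, at 35.7 and 42.4. In bulk RNA, fewer cells of a type and less RNA per cell cannot be told apart.

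All 6 STAT genes were well expressed, with 901 to 9461 reads per gene and library. Per unit of gene length (FPKM, as the authors deposited it), Stat6 was the highest of the 6 in every library, at 69.9, 66.2 and 61.0 FPKM in control and 60.6, 61.1 and 52.3 FPKM in Ogt-KD libraries. Stat5b followed with 50.4 to 58.1 FPKM over all 6 libraries, and the ranges of these neighbours in the order overlapped. Stat3 ranged from 28.9 to 40.1 FPKM, below every Stat5b value. Stat2 spanned 14.3 to 53.0 FPKM and overlapped Stat3, Stat5b, Stat6 and Stat4 in its range. It ranked 2 of the 6 in Ogt-KD replicate 2 and 5 of the 6 in Ogt-KD replicate 3. The least abundant genes were Stat4, at 11.2 to 16.6 FPKM, and Stat5a, at 9.83 to 13.2 FPKM, which overlapped. Stat5b thus stood above Stat5a in every library per length. These levels rest on the deposited gene length, which joins all annotated exons.

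**Figure D1:**
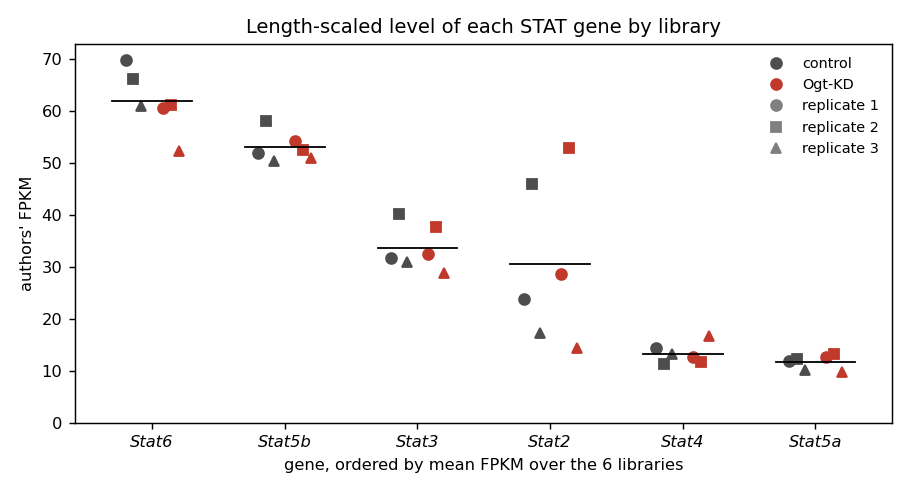
Length-scaled level (authors' FPKM) of each STAT gene in 3 control and 3 Ogt-KD libraries, ordered by the mean over all 6, which is the horizontal line. Stat6 and Stat5b lie above 50 FPKM in all libraries, Stat4 and Stat5a below 17 FPKM, and Stat2 spreads from 14.3 to 53.0 FPKM.

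No STAT gene passed the test between Ogt-KD and control libraries. In edgeR 0 of 6 passed at an adjusted p under 0.05, where 0.00622% of the 16075 genes tested passed. At an unadjusted p under 0.05 the count was 0 of 6, against 7.52% of all genes. DESeq2 called 0 of 6 (0.638% of all genes), limma-voom 0 (0.00622%), edgeR with no filter on low counts 0 (0.0141%) and edgeR with the replicate number as a block 0 (0.292% of all genes). The control and Ogt-KD ranges overlapped for all 6 genes, whereas they did not overlap for 13.3% of all genes tested. Of the 6 genes 3 lay above and 3 below 0, with a median log2 fold change of 0.02 against -0.0048 for all genes tested. In the authors' deposited table the log2 fold changes of the 6 genes ran from -0.18 for Stat6 to 0.14 for Stat2. The smallest adjusted p there was 0.994, that of Stat6, where 0.417% of all genes with a value passed. These log2 fold changes nearly equalled those of DESeq2 here (-0.1805 for Stat6 in both), so they are not a separate result.

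**Figure D2:**
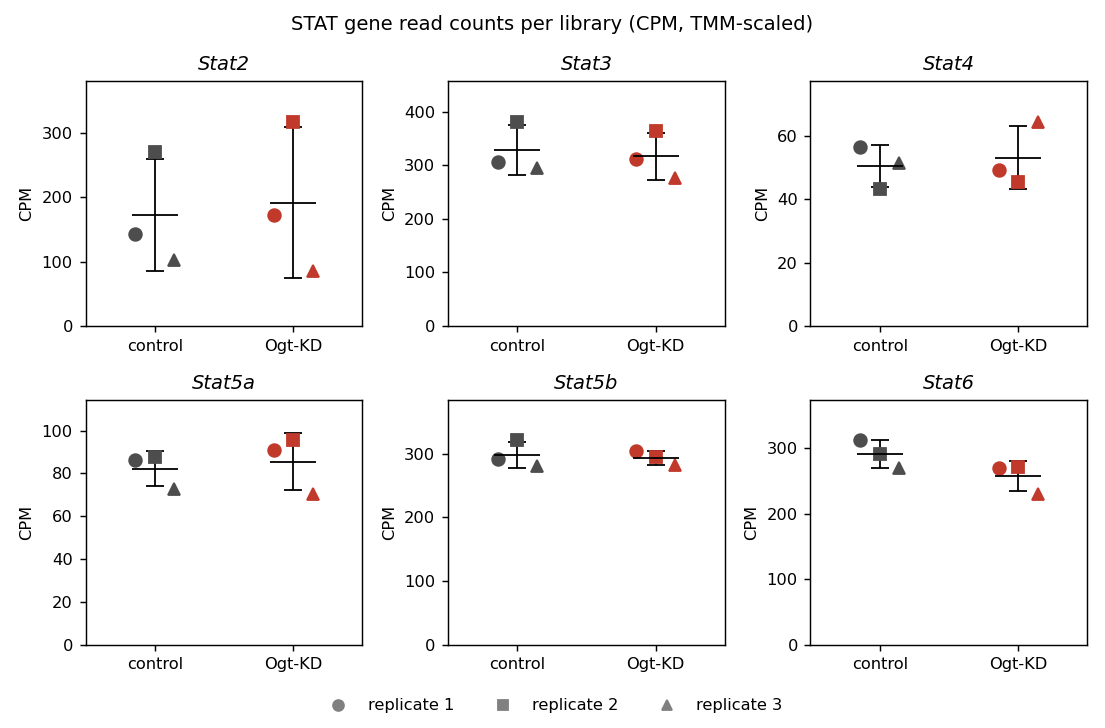
TMM-scaled read counts (CPM) of each STAT gene per library, with the group mean and SD as bars (n = 3 per group) and the replicate number as the symbol. The groups overlap in every panel, and in both groups Stat2 is highest in replicate 2 and lowest in replicate 3.

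Stat2, the partner of IRF9 in ISGF3, had 143, 271 and 103 CPM in control and 172, 317 and 85.0 CPM in Ogt-KD libraries. Replicate 2 was high and replicate 3 low in both groups, and the groups overlapped across nearly their whole range. The means were 173 ± 87.5 and 191 ± 117 CPM (SD, n = 3 each). The fitted log2 fold change was 0.15 with SE 0.52 and a 95% interval of -1.07 to 1.37 (edgeR adjusted p = 0.983). The interval of the ratio ran from 0.477 to 2.58. With the replicate number as a block the interval narrowed to -0.21 to 0.36 around 0.07, and the gene did not pass.

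Stat3, which drives the Th17 programme, had 307, 381 and 295 CPM in control and 312, 363 and 276 CPM in Ogt-KD libraries. Here too replicate 2 was the highest and replicate 3 the lowest of each group. The log2 fold change was -0.05 (SE 0.15, 95% interval -0.39 to 0.30, edgeR adjusted p = 0.983), which bounds the ratio between 0.762 and 1.23.

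Stat4, the Th1 member, had 56.6, 43.4 and 51.5 CPM in control and 49.4, 45.7 and 64.5 CPM in Ogt-KD libraries. It was lowest in replicate 2 of both groups, the libraries where Stat2 and Stat3 were highest. The highest value was that of Ogt-KD replicate 3. Its log2 fold change was 0.08 (SE 0.16, 95% interval -0.30 to 0.45, edgeR adjusted p = 0.976), and -0.07 without replicate 3 of both groups.

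Stat5a had 86.2, 87.7 and 72.8 CPM in control and 91.0, 95.5 and 70.2 CPM in Ogt-KD libraries. Both replicate 3 libraries were low, and the other 4 lay close together. The log2 fold change was 0.06 (SE 0.14, 95% interval -0.27 to 0.38, edgeR adjusted p = 0.979). Stat5b, the more abundant of the Stat5 pair, had 292, 321 and 280 CPM in control and 304, 294 and 282 CPM in Ogt-KD libraries. It was the steadiest member, and its highest library exceeded its lowest by 1.14-fold. Its log2 fold change was -0.02 (SE 0.09, 95% interval -0.24 to 0.20, edgeR adjusted p = 0.988), so that the interval of the ratio ran from 0.847 to 1.15.

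The balance of the Stat5 pair differed between genotypes by less than the spread between libraries. Within a library the count of Stat5a was 0.295, 0.273 and 0.2599 of that of Stat5b in control and 0.299, 0.325 and 0.249 of it in Ogt-KD libraries. Replicate 3 had the lowest ratio of each group, and the groups overlapped. On the log2 scale the means were -1.86 ± 0.09 and -1.79 ± 0.20 (SD, n = 3 each), a difference of 0.07 (two-sided exact permutation test, p = 0.7, where 3 against 3 cannot go below 0.1).

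Stat6, the Th2 member, had the smallest p of the 6. It had 312, 291 and 269.5 CPM in control and 269.95, 272 and 231 CPM in Ogt-KD libraries. The groups overlapped only in that control replicate 3 lay just under Ogt-KD replicates 1 and 2, and Ogt-KD replicate 3 was the lowest library. The means were 291 ± 21.1 and 257 ± 23.3 CPM (SD, n = 3 each). The fitted log2 fold change was -0.18 with SE 0.11 and a 95% interval of -0.43 to 0.08 (edgeR adjusted p = 0.794, unadjusted 0.145). With the replicate block the adjusted p was 0.409, and Ogt-KD was lower in all 3 pairs of libraries with the same number, by log2 differences of -0.21, -0.10 and -0.23. Stat6 was the member whose direction was the same in all 12 alternative fits, from -0.25 to -0.10. Each of the other 5 changed sign in at least 2 of them. The fits share libraries and the labels state no pairing, so neither the fits nor the pairs are separate evidence.

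**Figure D3:**
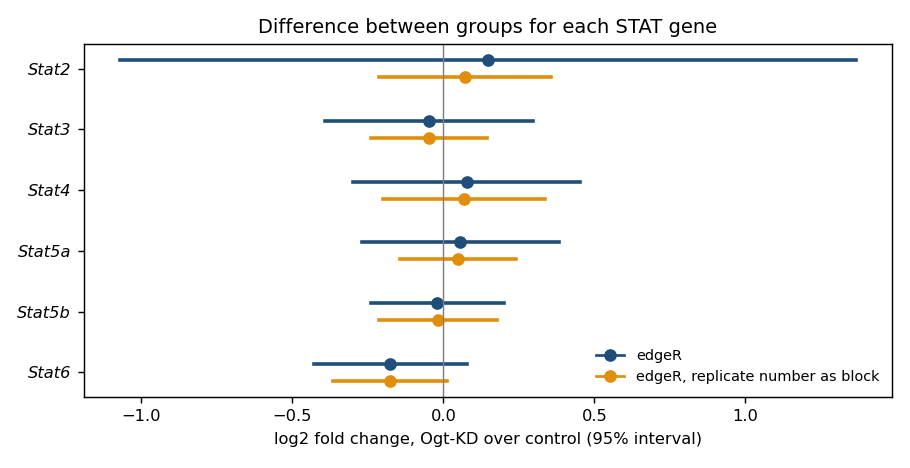
Ogt-KD over control on the log2 scale for each STAT gene, with the 95% interval, from edgeR without and with the replicate number as a block. Every interval includes 0, and that of Stat2 shrinks from -1.07 to 1.37 without the block to -0.21 to 0.36 with it.

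Among the 6 STAT genes, Stat2 had the widest spread over the libraries, and it lay between replicate numbers. Its highest library held 3.73-fold the CPM of its lowest. The same ratio was 1.14 to 1.49 for the other 5 genes. Ranked by spread over the 6 libraries, Stat2 stood at percentile 98.7 of 6107 genes with an average log2 CPM of at least 5, with 80 genes more variable. Stat5b stood at percentile 10.5, Stat6 at 49.6, Stat3 at 63.0, Stat5a at 63.1 and Stat4 at 71.7. The biological coefficient of variation that edgeR estimated was 43.6% for Stat2, where the trend for genes of its level was 16.6%, and 12.1% to 16.0% for the other 5.

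Interferon-stimulated genes followed the same libraries as Stat2. The 18 ISGF3 targets, antiviral effectors such as Isg15, Mx1 and Oas2 and the interferon factor Irf7, had a median deviation from their own mean log2 CPM of -0.05, 0.91 and -0.57 in control replicates 1, 2 and 3. In Ogt-KD replicates 1, 2 and 3 it was -0.10, 1.01 and -1.12. Stat2 deviated by -0.18, 0.73 and -0.66 and by 0.08, 0.96 and -0.94 in the same libraries. Both were thus high in replicate 2 and low in replicate 3 of either genotype. Irf9, the partner gene, had the same order with a smaller swing, from -0.55 in Ogt-KD replicate 3 to 0.44 in Ogt-KD replicate 2. The order of replicate 2 above 1 above 3 in both groups held for 16 of the 18 targets and for 9.08% of all genes tested. Among the STAT genes it held for Stat2, Stat3 and Stat5a. The labels do not say what the replicate numbers share.

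The sum of the macrophage and monocyte markers had another order and was highest in both replicate 3 libraries. In replicates 1 and 2 it was 1024 and 1011 CPM in control and 557 and 578 CPM in Ogt-KD. Vcam1 alone had 1284.5 CPM in control replicate 3 and 1241 CPM in Ogt-KD replicate 3. Lyz2 did not share this order and was highest in replicate 1 of both groups, at 199 and 205 CPM. Dendritic cell markers summed to 989, 1011 and 466 CPM in control and 1646, 2354 and 839 CPM in Ogt-KD replicates 1, 2 and 3. The order of this sum was that of Stat2. The part of either cell type in the Stat2 values was not tested.

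**Figure D4:**
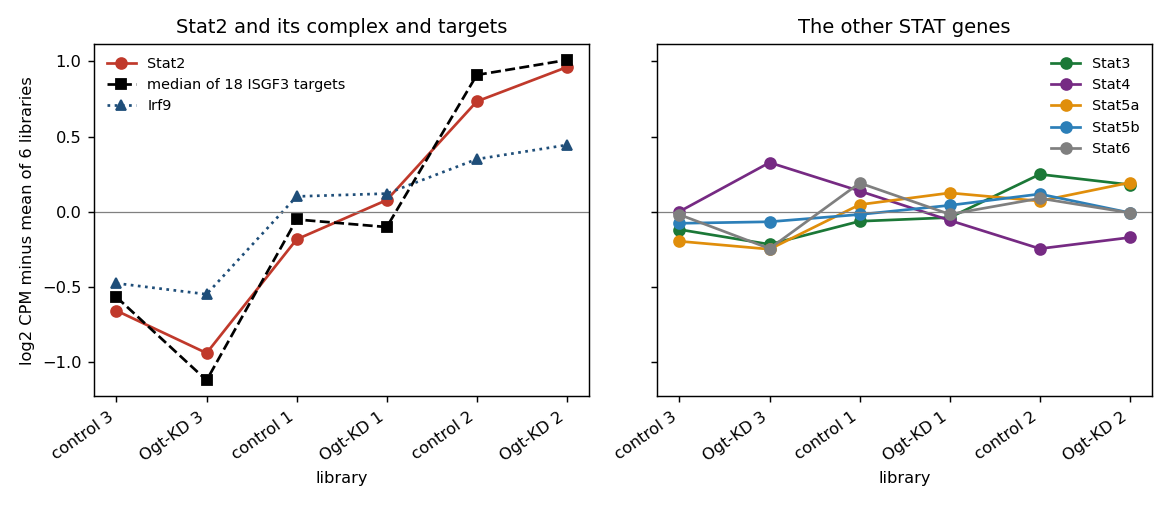
Left, log2 CPM minus the mean of the 6 libraries for Stat2, Irf9 and the median of 18 ISGF3 targets, and right, the same for the other 5 STAT genes, with libraries placed by replicate number and lines only to guide the eye. Stat2 and the targets are low in both replicate 3 libraries and high in both replicate 2 libraries, and Stat4 is lowest in the replicate 2 libraries.

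The genes whose pattern over the 6 libraries was most like that of a STAT gene were found by the root mean square difference of centred log2 CPM among 5934 candidates. For Stat2 these were Dhx58 (difference 0.05), which encodes the RNA sensor LGP2, and Herc6 (0.09), an interferon-induced ligase gene, where the median candidate differed by 0.68. Dhx58 had 59.4, 110 and 45.0 CPM in control and 70.7, 126 and 37.2 CPM in Ogt-KD libraries. For Stat3 they were Itpr1 (0.03), a calcium release channel gene, and Nsd3 (0.03), for Stat4 Oard1 (0.04) and Zdhhc20 (0.05), and for Stat5a Parp4 (0.03) and Traf2 (0.03), a TNF receptor adaptor gene. Stat5b was closest to Helb (0.01) and Sufu (0.01), which like it hardly varied, and Stat6 to Rbm6 (0.02) and Rab6b (0.03). Median candidates differed from these 5 genes by 0.14 to 0.23.

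The genes around the STAT proteins were read from lists of receptors, kinases, inhibitors and targets. The lists share genes, so their results are not separate. Il2ra, Il2rb, Cish, Socs1 and Socs2 are STAT5 targets and also receptors or inhibitors, and Il12rb2 is a receptor and a STAT4 target. Socs3, an inhibitor, and Il23r, a receptor, are also STAT3 targets. Il4ra is a receptor and a STAT6 target, and Usp18 is an inhibitor and an ISGF3 target. Of 92 genes, each taken once, 87 were tested. Of these 52 lay above 0 and 35 below it, with a median of 0.14 on the log2 scale, where 49% of all genes lay above 0. In edgeR 0 passed. At an unadjusted p under 0.05, 18 were higher and 1, Pias2, was lower in Ogt-KD libraries, where 810 of all 16075 genes tested were higher and 399 lower (7.52% in all). Pias2 was named after its value was seen. Calls by other fits were all upward. They numbered 6 with the replicate block (0.292% of all genes called), 7 with DESeq2 (0.638%) and 3 without replicate 3 of both groups (35 of 16319 genes). There were 2 with no low-count filter (0.0141%), 1 without Ogt-KD replicate 3 (2 of 16329 genes) and 0 with RLE, limma-voom or any other single library left out. The lists were drawn with earlier results of these libraries known, so their counts are not independent evidence.

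No receptor gene upstream of STAT4 or STAT5 passed in edgeR with or without the block. Il12rb1 and Il12rb2, the chains of the interleukin 12 receptor upstream of STAT4, had log2 fold changes of 0.62 (SE 0.20) and 0.77 (SE 0.37), with edgeR adjusted p values of 0.583 and 0.686. Il12rb1 had 33.8, 50.02 and 37.4 CPM in control and 64.4, 74.0 and 47.8 CPM in Ogt-KD libraries. The groups overlapped for both genes. Of 7 receptor genes upstream of STAT5, 5 lay above 0 and 2, Il2rg and Il7r, below it, with a median of 0.52. Il2rg and Il7r, named for this count after their values were seen, had -0.015 and -0.22. Il2rb, the shared chain of the interleukin 2 and 15 receptors, had 287, 362 and 322 CPM in control and 429, 464 and 499.6 CPM in Ogt-KD, without overlap (log2 difference 0.52, SE 0.12, edgeR adjusted p = 0.512). Il2ra, another chain of the interleukin 2 receptor, had 0.55 (SE 0.18), and Il9r 0.59 (SE 0.17).

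Receptors of the other STAT proteins were mixed. Of 8 tested genes upstream of STAT3, 4 lay above and 4 below 0. Il10ra, the interleukin 10 receptor chain, had 56.4, 74.4 and 61.3 CPM in control and 101, 118 and 103 CPM in Ogt-KD libraries. It passed as higher with the replicate block (log2 fold change 0.75, edgeR adjusted p = 0.0363) and in DESeq2 (adjusted p = 0.00504). In edgeR without the block the log2 fold change was 0.74 and did not pass (adjusted p = 0.48). Il6ra, the interleukin 6 receptor, had -0.15 (SE 0.10), and Il23r stood at 1.63 and 2.67 CPM. Il4ra, the interleukin 4 receptor chain upstream of STAT6, had -0.22 (SE 0.11), and Il13ra1 0.23 (SE 0.44). The interferon receptor chains Ifnar1 and Ifnar2 had 0.15 (SE 0.16) and 0.18 (SE 0.10), and Irf9 had 0.03 (SE 0.29). Of the Janus kinases, Jak1 had -0.23 (SE 0.11) with all 3 Ogt-KD libraries under the controls, Jak2 0.21 (SE 0.11) and Tyk2 0.14 (SE 0.13). None of these receptor and kinase genes other than Il10ra passed in either edgeR fit.

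Among 17 tested inhibitors of the pathway, 7 lay above and 10 below 0, with a median of -0.05. With the replicate block 2 of the 17 passed as higher, Socs2 and Cish, where 0.292% of all genes were called. Both are feedback inhibitors induced by STAT5. Socs2 had 14.8, 17.4 and 16.0 CPM in control and 25.5, 29.4 and 32.8 CPM in Ogt-KD (log2 difference 0.87, SE 0.13, adjusted p = 0.48 in edgeR and 0.048 after blocking). Cish had 40.8, 50.6 and 33.5 CPM in control and 65.1, 75.7 and 54.3 CPM in Ogt-KD libraries (0.64, SE 0.18, edgeR adjusted p = 0.537, 0.0443 with the block). Every Ogt-KD library lay above every control library for both genes. The groups did not overlap for 5 of the 17 inhibitors, and for 13.3% of all genes tested. The others without overlap were Pias3, higher in Ogt-KD libraries, and Socs3 and Pias2, which were lower. In DESeq2 Socs2 passed (adjusted p = 0.000971) and Cish did not (adjusted p = 0.169). Pias3, which encodes an inhibitor of STAT3, had 0.33 (SE 0.10), and Socs3, the feedback inhibitor induced by STAT3, had -0.23 (SE 0.10), and neither passed in edgeR with or without the block.

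Target genes differed by list. All 9 STAT4 targets lay above 0, with a median of 0.82. Il18rap, a chain of the interleukin 18 receptor, had 40.4, 46.2 and 43.5 CPM in control and 81.4, 75.4 and 75.8 CPM in Ogt-KD, without overlap (log2 difference 0.84, SE 0.09, adjusted p = 0.117 in edgeR and 0.0363 after blocking). Its partner Il18r1 had a log2 difference of 0.62 (SE 0.09, edgeR adjusted p = 0.48, 0.055 after blocking). Both passed in DESeq2, with an adjusted p of 1.15e-06 for Il18rap and 0.00254 for Il18r1. Of 12 STAT5 targets 10 lay above 0, with a median of 0.34. With the block 3 passed as higher (0.292% of all genes called), namely Socs2, Cish and Foxp3, the regulatory T cell factor. Foxp3 is named here after its values were seen. Its groups overlapped, and its adjusted p was 0.0427 with the block, 0.583 in edgeR without it and 0.216 in DESeq2. The 11 tested STAT3 targets had a median of 0.18, with Rora at 0.35 (SE 0.10) and Ahr at 0.39 (SE 0.22), and the 4 tested STAT6 targets had 0.17, with Gata3 at 0.22 (SE 0.19) and Nfil3 at 0.30 (SE 0.29). For ISGF3 targets the median was -0.12, with 13 of 18 below 0 and Ifit1 at -0.55 (SE 0.41), Ifit2 at -0.26 (SE 0.26) and Oas1a at 0.33 (SE 0.44). None of the 33 genes of these last 3 lists that were tested passed in edgeR with or without the block.

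Without replicate 3 of both groups the median of the STAT4 targets was 0.85, that of the STAT5 targets 0.27, that of the STAT3 targets 0.14 and that of the STAT6 targets 0.12. The median of the ISGF3 targets was then -0.0099 and that of the 6 STAT genes -0.03. All 8 dendritic cell markers lay above 0, with a median of 1.17 over all libraries and 1.03 without replicate 3 of both groups. The 4 natural killer cell markers, of which 2 passed the low-count filter, summed to 12.4 to 15.2 CPM in control and 15.9 to 17.9 CPM in Ogt-KD libraries, where Ncr1 was under 0.5 CPM in each. The part of these cells in the higher receptor and target counts was not tested.

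**Figure D5:**
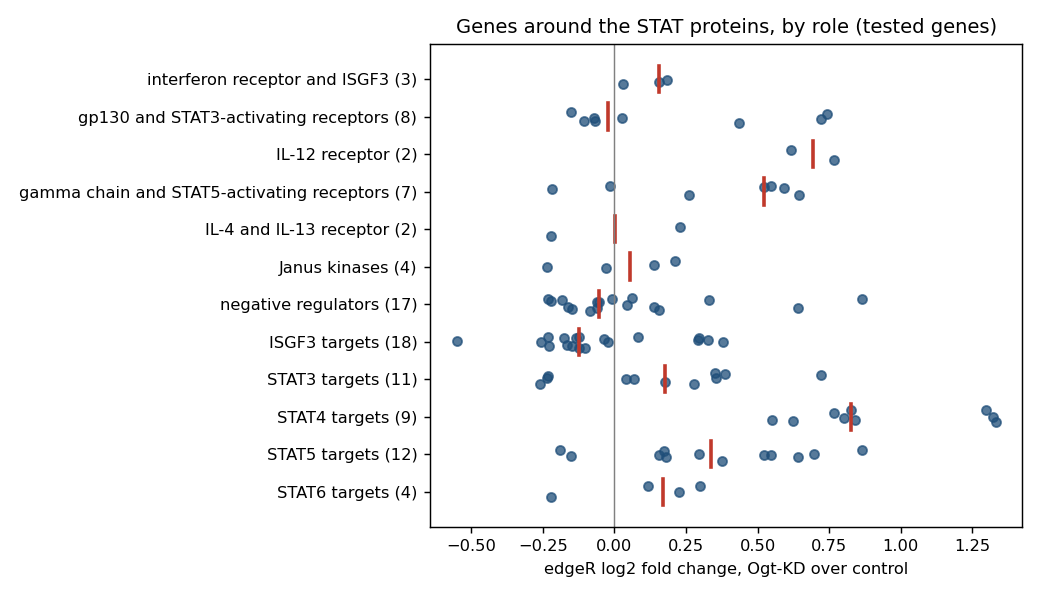
Ogt-KD over control on the log2 scale (edgeR log2 fold change) for each tested gene of 12 lists around the STAT proteins, with the number tested in parentheses and the list median as a vertical line. The STAT4 targets all lie right of 0, with a median of 0.82, and the ISGF3 targets have a median of -0.12.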

How the data were processed

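Gene expression was measured by RNA sequencing in 3 control and 3 Ogt-KD libraries. The authors deposited 1 table with integer read counts and FPKM per Ensembl gene and library. It also holds their mean normalised signal per group, their own comparison and the gene length in bases. The log2 fold changes and p-values in it were made by the authors from their comparison of the groups, by a test that no source names. For the 6 STAT genes these log2 fold changes nearly equal those of DESeq2 here. The deposited signal columns were not used. Bowtie2 2.0.6, TopHat2 2.0.9 and the build mm9 are named per the submitters' processing notes. Counting tool and strand setting were not given in the sources used here. All 6 STAT genes have GENCODE M21 (GRCm38) coordinates in the table, as do 53499 of 54409 matched identifiers, so positions are on GRCm38.

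Counts were tested with edgeR 4.0.16 (TMM, filterByExpr, quasi-likelihood F test with robust dispersion, R 4.3.3) over 16075 genes, adjusted by Benjamini-Hochberg, threshold 0.05. The pipeline was tested on simulated data. DESeq2 1.42.0, limma-voom (limma 3.58.1), other scalings and filters and fits without each library were alternatives. CPM are counts over TMM-scaled library size. Nothing states that the mice are paired or how samples were taken, so p-values measure the spread between these libraries. Deviations of same-numbered libraries correlated at 0.109, 0.346 and 0.523, all above 0.1, while control 2 and Ogt-KD 1 correlated at 0.267. The lowest value of a same-numbered pair was thus below that of a pair with unlike numbers. The replicate number was used as a block in an alternative fit only, as the labels state no pairing. Any pairing can be read only from the same counts, and the p-values of the block fit can be too small.

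The STAT genes and the lists were chosen with earlier results of these data known. Text names all 6 STAT genes, Ogt, the 3 genes of each list with the smallest edgeR p and the 2 genes most like each STAT gene with an average log2 CPM of at least 5. RefSeq promoter windows were available for all 6 STAT genes, 9 in all. Outside this rule, Pias2, Foxp3, Il2rg and Il7r were named for a count, Isg15, Mx1, Oas2 and Irf7 as examples of a list, and Isg15, Ifit3 and Rsad2 for their sequences. Vcam1 and Lyz2 were named for their part in a marker sum, and Socs1 and Usp18 as genes that lists share. A gene that this rule would name is not reported here.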

Additional observations from a re-analysis of the deposited data

How the results depend on the processing

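The count of 0 of 6 STAT genes called was the same in edgeR and in the 12 alternative fits. The count over all genes was 1 in edgeR, 111 with DESeq2, 4 with no low-count filter, 47 with the replicate block and 35 without replicate 3 of both groups. It was 1 to 2 when single libraries were left out. Other size factors (RLE) and limma-voom gave 1. The STAT genes other than Stat6 changed sign with the libraries kept. Leaving out single libraries gave log2 fold changes from -0.43 to 0.64 for Stat2, -0.16 to 0.076 for Stat3, -0.088 to 0.18 for Stat4, -0.046 to 0.18 for Stat5a and -0.082 to 0.040 for Stat5b. Stat4 was also reversed without replicate 3 of both groups (-0.073). The lowest and highest values of Stat2 came without Ogt-KD replicate 2 and control replicate 2, and the cause was not tested. Stat6 ranged from -0.25 to -0.10. Of the other named genes, Irf9 ranged from -0.21 to 0.26, Il13ra1 ranged from -0.23 to 0.59 and Oas1a from -0.10 to 0.74 in such fits. The Stat5a to Stat5b difference ranged from -0.016 to 0.18 without single libraries and was 0.07 from FPKM. The replicate block changed no call of a STAT gene. Each STAT gene had at least 901 reads in every library.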

Other observations

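Of the 12 genes most like a STAT gene, 9 had a promoter window in the table, and 2 of these held a motif searched. Parp4, most like Stat5a, held 2 overlapping matches to the interferon-type motif, from base -150 to -135 relative to its start. Helb, most like Stat5b, held 1 match to TTCNNNGAA, from base -5 to 4. The 6 STAT genes together had 1197, 1394 and 1073 CPM in control and 1199, 1387 and 1008 CPM in Ogt-KD replicates 1, 2 and 3, the order of Stat2 in both groups.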
